A study of Mus musculus with 2 samples.

Results

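Stretches of the mouse genome that are dense in CpG sites and nevertheless methylated were described in hippocampal DNA of C57BL/6 mice. The ATO library came from offspring of mice that drank water with 5000 ppb arsenic trioxide (ATO) from before mating through lactation, and the offspring were kept on such water after weaning. The control library came from untreated mice of the same strain. There was 1 library in each group, and the labels give neither an age nor whether a library is 1 animal or a pool. The autosomes were cut into bins of 500 bp, and only cytosines with at least 10 reads in both libraries were used. The level of a bin is the percent of its C or T calls that were C, which bisulfite sequencing reads as methylated. A bin was kept here when it held at least 15 analysed cytosines and the mean level of both libraries was at least 80%. This rule took 3068 of 37606 bins of that density, which is 8.16% of them, and 2.05% of the 149544 bins with at least 5 analysed cytosines. The bins were thus selected on the measured levels of both libraries, so their high level is a description and not a result. Methylation tables carry no expression, so the tissue label was not checked against marker genes.

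CpG sites are rare in most of the mouse genome, where they are usually methylated. They cluster in CpG islands, which often hold promoters and usually stay unmethylated even when the gene is off. A CpG-dense promoter that is methylated is, in most tissues, firmly silent. Classic examples are genes of the germline, which somatic cells methylate in the early embryo, and imprinted genes, at which the parental copies differ. DNMT1 copies the mark when DNA is replicated, and enzymes of the DNMT3 family add it anew, also in neurons.

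The sequences of 4 promoters that overlapped such bins show what methylated CpG-dense DNA looks like. The first 3 are the promoters of germline genes with the most CpG sites in the listed stretch, and the fourth is the promoter of the only imprinted gene of the list found in such a bin. Capitals mark every CG. Letters are from RefSeq (GRCm38.p6), each reads 5′ to 3′ on the strand of its gene and ends at the base before its start site, and each was placed on build mm9 by the spacing of its CpG sites. Stk31 lies at chr6:49345288-49345537 on the plus strand, Dazl at chr17:50432946-50433195 on the minus strand, Hormad1 at chr3:95363349-95363598 on the plus strand and Zdbf2 at chr1:63246682-63246931 on the plus strand. The Dazl and Zdbf2 stretches lie wholly in methylated dense bins. The Stk31 bin ends at 49345500, so the end of that stretch is outside it. The Hormad1 bin starts at 95363501, so most of the Hormad1 stretch is outside it.
Stk31: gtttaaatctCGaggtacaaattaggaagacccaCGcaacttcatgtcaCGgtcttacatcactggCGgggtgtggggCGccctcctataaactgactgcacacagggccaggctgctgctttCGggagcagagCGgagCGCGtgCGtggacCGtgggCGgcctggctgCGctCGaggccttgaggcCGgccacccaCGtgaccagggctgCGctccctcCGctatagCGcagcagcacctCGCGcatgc
Dazl: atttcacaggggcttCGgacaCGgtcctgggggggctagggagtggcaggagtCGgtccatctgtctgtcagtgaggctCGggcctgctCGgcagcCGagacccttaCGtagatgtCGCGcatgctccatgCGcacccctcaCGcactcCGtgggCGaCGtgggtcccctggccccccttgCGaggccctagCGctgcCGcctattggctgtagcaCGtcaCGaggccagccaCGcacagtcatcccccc
Hormad1: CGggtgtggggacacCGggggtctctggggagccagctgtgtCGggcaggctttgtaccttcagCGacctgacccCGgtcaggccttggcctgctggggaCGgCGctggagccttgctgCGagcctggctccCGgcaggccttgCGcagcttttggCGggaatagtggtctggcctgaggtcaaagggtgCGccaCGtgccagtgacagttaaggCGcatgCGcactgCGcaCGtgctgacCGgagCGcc
Zdbf2: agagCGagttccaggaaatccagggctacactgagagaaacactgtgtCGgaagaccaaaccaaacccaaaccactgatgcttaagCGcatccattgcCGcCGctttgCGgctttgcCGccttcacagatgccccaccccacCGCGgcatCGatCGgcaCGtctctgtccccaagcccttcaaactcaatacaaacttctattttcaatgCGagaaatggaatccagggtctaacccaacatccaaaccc

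The Stk31 stretch holds 21 CpG sites. Its 15 analysed cytosines were methylated at 91.6% in the ATO library and 88.5% in the control library. The Dazl stretch holds 20 sites, and its 21 analysed cytosines, both strands counted, stood at 98.2% in the ATO library and 98.0% in the control library. Hormad1 has 19 sites in its stretch, at 91.4% in the ATO library and 90.1% in the control library. The Zdbf2 stretch, with 13 sites, stood at 98.6% in the ATO library and 96.2% in the control library. In Dazl and Zdbf2 the mark was even, with the lowest single cytosine at 92.1% in Dazl and 95.2% in Zdbf2 as the mean of both libraries. In Stk31 and Hormad1 single cytosines were as low as 71.8% in Stk31 and 66.9% in Hormad1.

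High methylation was the exception at this density. Of the dense bins, 27895 (74.2%) were below 10%, 2256 (6.00%) lay between 10 and 20%, 3139 (8.35%) between 20 and 60%, and 1248 (3.32%) between 60 and 80%. Among the 111938 bins with 5 to 14 analysed cytosines, called sparse from here on, 29.5% were at 80% or more and 14.6% were below 10%. Dense and sparse refer to analysed cytosines, so CpG-rich DNA with too few reads can count as sparse. The share that was highly methylated got smaller as density went up. It was 13.5% of bins with 15 to 19 cytosines, 7.41% with 20 to 29, 3.85% with 30 to 39 and 111 of 4440 bins with 40 or more. The analysed cytosines of the methylated dense bins numbered 65592, a median of 19 and at most 85 a bin. Of these, 79.7% lay on the reverse strand, against 95.3% of all analysed cytosines, so that both strands of a CpG were counted more often here. Counted as distinct CpG sites the median was 17, and 675 bins (22.0%) held fewer than 15 sites.

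**Figure D1:**
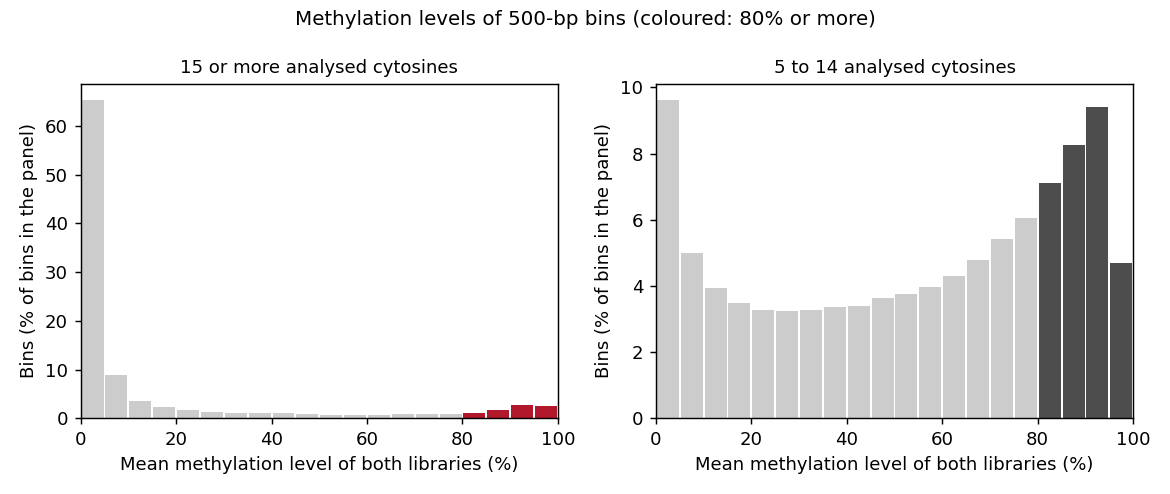
Distribution of the mean methylation level of both libraries, in 5-point steps, for autosomal 500-bp bins with 15 or more analysed cytosines (left) and with 5 to 14 (right), as percent of the bins in each panel. Dense bins pile up below 10% (74.2% of them) and the coloured bars at 80% or more hold 8.16% of them, whereas sparse bins have a broad second peak that holds 29.5%.

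The ATO library has 147924810 calls over all listed CpG cytosines and the control library 135987272. Median coverage of the cytosines in methylated dense bins was 45 reads in the ATO library and 41 in the control library, the same as over all analysed autosomal cytosines. Over these bins 90.68% of 4866759 calls were methylated in the ATO library (95% Wilson interval 90.65 to 90.71%), and 91.59% of 4344233 in the control library (91.56 to 91.61%). These Wilson intervals use all calls, not divided by the cytosines that can share a fragment, so they are too narrow even for counting error. All intervals cover counting error only, since reads are not known to be independent molecules.

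Promoter windows of 300 bases, 250 before to 50 after a start, could be placed for 5626 genes, and 48 of these genes (0.853%) had a window that overlapped a methylated dense bin. The placed windows touched 51 of the 3068 bins (1.66%). Placement needs at least 10 CpG sites in the window and covers only part of all genes, so the other bins may hold promoters as well. Of the 4924 genes with at least 5 analysed cytosines in the window, 4590 (93.2%) were below 10% and 71 (1.44%) at 80% or more.

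Germline genes were among the methylated promoters. Of a list of 25 germline genes 14 had a placed window and 13 were measured, and 11 of these 13 stood at 80% or more, 2 between 10 and 80% and none below 10%. For 10 of them the window overlapped a methylated dense bin. These were Dazl, an RNA-binding protein of germ cells, Sycp1, which forms the transverse filaments of the synaptonemal complex, and Hormad1, a protein of the meiotic chromosome axis. Brdt is the testis bromodomain protein, Stk31 a kinase-like protein of germ cells, and Slc25a31 the testis form of the mitochondrial ADP/ATP carrier. Mov10l1 and Tdrd9 are helicases of the piRNA pathway that silences transposons in the germline, Rpl10l is a testis copy of a ribosomal protein gene, and Dpep3 is a dipeptidase of the testis.

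Across these 10 windows the levels ran from 87.3 to 98.2% in the ATO library and from 83.2 to 97.4% in the control library. Tdrd9 was the lowest, at 87.3% in the ATO library (exact 95% interval 78.2 to 94.3%) and 83.2% in the control library (72.7 to 91.1%). Rpl10l was the highest in the ATO library, at 98.2% in the ATO library (94.2 to 99.8%) and 96.9% in the control library (90.5 to 99.3%). For both genes the intervals of the libraries overlap. All 10 windows were higher in the ATO library, by a median of 1.25 points. The 12 bins behind them averaged 94.9% in the ATO library and 93.4% in the control library, a mean difference of 1.49 points (SD 1.51 over bins), and 11 of the 12 were higher in the ATO library. No cytosine in any of these 10 windows was called different between the libraries, where a call needs an adjusted p under 0.05 by Fisher's exact test and at least 25 points. Of all analysed autosomal cytosines 1.75% were called lower in the ATO library and 0.928% higher. The other 3 measured genes of the list were outside the bins. That need not mean few CpG sites, since the rule counts only analysed cytosines. The Ddx4 window holds 38 CpG sites but had 7 analysed cytosines, and the Piwil1 window holds 18 but had 9. Ddx4, a germ-cell RNA helicase, stood at 81.0% in the ATO library (50.1 to 93.2%) and 89.1% in the control library (66.1 to 99.8%). Piwil1, an Argonaute protein that binds piRNAs, stood at 75.3% in the ATO library and 76.4% in the control library. Tdrd1, a Tudor protein of the same pathway, stood at 58.4% in the ATO library and 48.7% in the control library.

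Imprinted, Hox and zinc finger promoters stood at other levels. Of 27 imprinted names 11 had a placed window and 9 were measured, and only Zdbf2 lay in a methylated dense bin. Its whole window stood at 98.6% in the ATO library (93.1 to 100%) and 96.1% in the control library (89.4 to 99.2%), with 14 of 15 cytosines higher in the ATO library. The promoters of Peg3 and Zrsr1, imprinted genes whose maternal copy alone carries the mark, stood near the middle. Peg3 was at 47.0% in the ATO library and 46.3% in the control library, and Zrsr1 at 50.3% in the ATO library and 49.6% in the control library. Lower in the ATO library were Gnas (41.4% against 57.4% in the control library), Nap1l5 (36.8% against 50.6%) and Mest (52.1% against 59.3%). Higher in it were Igf2 (8.33% against 4.44%) and Igf2r (13.1% against 7.91%). The intervals of the libraries overlap for each of these genes. The widest gap among the imprinted windows was at Plagl1, a zinc finger gene, with 35.8% in the ATO library (19.2 to 54.6%) and 63.6% in the control library (42.5 to 82.0%), and these intervals overlap. All 19 analysed cytosines of the Plagl1 window were lower in the ATO library, and none was called. All 8 measured Hox promoters were below 10%. Of 105 measured promoters of genes whose names start with Zfp, 98 were below 10% and none was at 80% or more. Promoters of the clustered protocadherin genes were not analysed here.

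**Figure D2:**
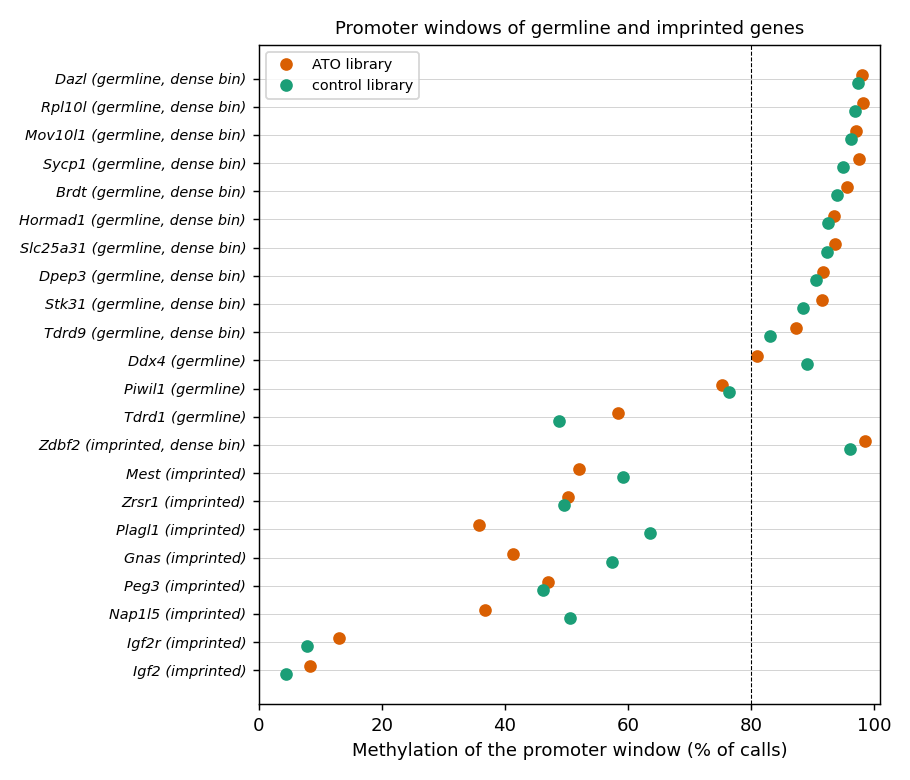
Methylation of the promoter window (percent of calls) of each measured gene of the germline and imprinted lists, with a point for each of the ATO and control libraries and a dashed line at 80%. The 10 germline genes in a dense methylated bin sit between 83.2 and 98.2%, each with the ATO point to the right, while the imprinted genes other than Zdbf2 sit at or below 63.6%.

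Other genes whose promoters fell in these bins were picked for description after their values were seen. Sycp2 and Syce1, proteins of the synaptonemal complex, were among them, as were Spata22, which acts in meiotic recombination, and Sohlh2, a transcription factor of early germ cells. The bin at Sohlh2 stood at 96.6% in the ATO library and 93.3% in the control library. The bin at Spata22 stood at 88.7% in the ATO library and 84.9% in the control library. The bin at Sycp2 stood at 87.2% in the ATO library and 84.6% in the control library. The 4 analysed cytosines of the Sycp2 window stood at 79.4% in the ATO library and 86.4% in the control library. Lower in the ATO library were the bins at Syce1 (80.6% against 81.9%), Zglp1 (85.3% against 90.9%) and Spesp1 (91.7% against 94.7%). Fkbp6, a germline co-chaperone, was lower too, with its bin at 91.2% against 94.7%. The Fkbp6 window stood at 85.9% in the ATO library (72.6 to 94.8%) and 92.1% in the control library (75.7 to 98.1%). Of its 32 cytosines 28 were lower in the ATO library. None of those 32 cytosines was called.

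Promoter bins and the remaining bins had mean differences of opposite sign. The 51 bins on placed promoters averaged 91.4% in the ATO library and 90.9% in the control library, a mean difference of 0.57 points (SD 3.62), with 33 of 51 (64.7%) higher in the ATO library. They include the 12 germline bins above, with a mean of 1.49 points. The bin at Gm51810 stood at 90.2% in the ATO library and 75.1% in the control library. Going the other way, the bin at Gm36567 stood at 80.9% in the ATO library and 92.0% in the control library. No mean was taken without these bins, so the sign is not shown for methylated promoters in general. The other 3017 bins averaged 90.9% in the ATO library and 92.0% in the control library, a mean difference of -1.11 points (SD 3.81), with 37.9% higher. Sparse bins of the same level gave -0.79 points on placed promoters (55 bins, 43.9% higher) and -1.08 points elsewhere (39.1% higher). The promoter bins were read less deeply, at a median coverage of 41.6 reads in the ATO library and 37.5 in the control library, against 50.5 reads in the ATO library and 46 in the control library in the other bins. Whether the promoter bins differ from the others beyond the spread between animals was not tested, since each group has 1 library.

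Motif letters in the windows were counted as a description. CACGTG, the E-box, which reads alike on both strands, was in the window of 15 of the 48 genes in methylated dense bins (31.3%), against 10.9% of the 6178 placed windows and 7.14% of all 31396 autosomal windows. It was in 7 of the 10 germline windows, those of Slc25a31, Hormad1, Sycp1, Brdt, Stk31, Tdrd9 and Mov10l1. In the Stk31 and Hormad1 stretches above, the motif can be read as caCGtg, once in Stk31 and at 2 places in Hormad1. TCCCGC, a core of E2F sites, or its reverse complement GCGGGA was in 12 of the 48 windows, against 40.6% of placed and 20.2% of all windows. The motifs can share at most 1 base, both strands were searched, and a match of letters is not a bound site.

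Between the libraries, the methylated dense bins differed little. They averaged 90.9 ± 5.66% in the ATO library and 92.0 ± 4.81% in the control library (SD over 3068 bins), with medians of 92.4% in the ATO library and 93.2% in the control library. They ranged from 67.6 to 100% in the ATO library and from 72.2 to 99.6% in the control library. The mean difference was -1.08 points (SD 3.82) and the median -0.62, with quartiles of -2.45 and 0.74. In 1892 bins (61.7%) the ATO library was lower and in 1176 it was higher. Most bins moved little, with 2653 (86.5%) within 5 points. A difference of at least 10 points was found as a lower level in the ATO library in 88 bins (2.87%) and as a higher one in 20 (0.652%). With 1 library a group there is no test of the exposure, and animal-to-animal spread is not known.

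Sparse bins of the same level had nearly the same mean difference. Sparse bins at 80% or more numbered 33007, and weighting them to the level classes of the dense bins gave 90.9% in the ATO library and 92.0% in the control library. Their mean difference was -1.08 points (SD 4.69), their median -0.86, against -0.62 in dense bins, and 60.8% were lower in the ATO library. The mean was the more negative in dense bins on the reverse strand alone (-1.21 against -1.13) and the less negative at a coverage minimum of 5 (-1.01 against -1.07). The spread was wider in sparse bins, with 3.67% lower by at least 10 points and 1.61% higher. Each of these bins rests on fewer calls, a weighted mean of 7.39 cytosines. Over all tested bins the mean difference was -1.66 points and the median -0.54, and over the unmethylated dense bins the mean was 0.0023 points.

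The mean difference varied with level in dense and sparse bins alike. Dense bins at 80 to 85% had a mean difference of -2.62 points (418 bins), against -2.36 in sparse bins. From 85 to 90% it was -1.90 (653 bins) against -1.61, from 90 to 95% it was -0.74 (1053 bins) against -0.91, and from 95 to 100% it was -0.21 (944 bins) against -0.32. Both kinds of bin thus approached 0 as they approached full methylation. This is partly set by the classes, since a mean level near 100% leaves little room for a difference. By density, the mean difference was -1.23 points at 15 to 19 cytosines (1672 bins), -1.04 at 20 to 29 (1007 bins), -0.56 at 30 to 39 (278 bins) and -0.50 at 40 or more (111 bins). Levels differed too, with 90.2% in the ATO library and 91.4% in the control library at 15 to 19 cytosines. At 40 or more they were 92.8% in the ATO library and 93.3% in the control library, and density was not separated from level.

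**Figure D3:**
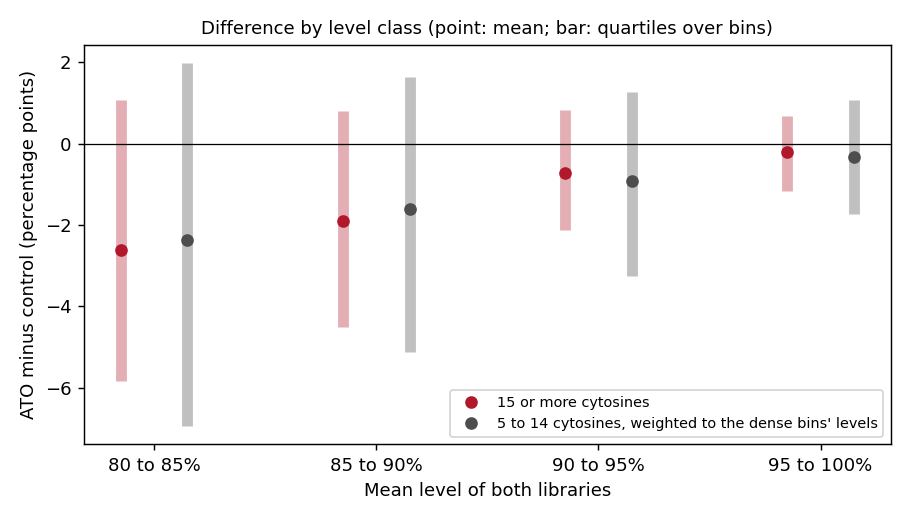
ATO minus control methylation (percentage points) by class of mean level, for bins with 15 or more analysed cytosines beside bins with 5 to 14. Points are means and bars run between the quartiles over bins, and the means of sparse bins are weighted to the dense bins' levels while their quartiles are not. The means go from -2.62 points at 80 to 85% to -0.21 at 95 to 100% in dense bins, and from -2.36 to -0.32 in sparse bins.

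The direction was shared by 18 of 19 autosomes. The exception was chromosome 13, whose 129 methylated dense bins averaged 91.3% in the ATO library and 91.1% in the control library, a mean difference of 0.12 points. Chromosome 19 had the most negative mean, -1.93 points over 95 bins. Dense bins had a less negative mean than sparse bins on 8 of the 19 chromosomes, so that neither kind was regularly ahead. The share of dense bins that were methylated ran from 6.23% on chromosome 11 to 12.0% on chromosome 10. In the last 10% of chromosome length lay 17.5% of methylated dense bins, against 16.9% of sparse bins of the same level and 13.9% of unmethylated dense bins.

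Few bins were called different, where a call needs an adjusted p under 0.05 and a difference of at least 20 points (Fisher's exact test on calls divided by the cytosines that can share a fragment, Benjamini-Hochberg adjustment over all tested bins). Called lower in the ATO library were 4 methylated dense bins (0.130%), against 1.18% of all tested bins, and called higher was 1 (0.0326%), against 0.647%. Sparse bins at 80% or more were called lower in 48 cases (0.145%) and higher in 26 (0.0788%). A share this small is partly set by the rule, because a bin with a mean of 80% or more has little room for a difference of 20 points. The test compares these 2 libraries and not the conditions.

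The called bin with the most cytosines lay on chromosome 5, at 137874001 to 137874500. It held 43 analysed cytosines at 22 CpG sites and stood at 68.8% in the ATO library (exact 95% interval 58.0 to 78.7%) and 94.9% in the control library (87.5 to 99.1%), with an adjusted p of 0.00295 by Fisher's exact test. Of its cytosines 42 of 43 were lower in the ATO library and 21 were called singly. The lower level thus ran through the whole bin. The bin on chromosome 12 at 107367001 to 107367500 had the most negative difference, with 67.6% in the ATO library (54.6 to 78.2%) and 93.9% in the control library (85.1 to 98.9%), all 15 cytosines lower, and an adjusted p of 0.0104 by the same exact test.

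Of the remaining 2 that were lower, the bin on chromosome 1 at 91567001 to 91567500 stood at 70.0% in the ATO library (58.7 to 79.7%) and 94.7% in the control library (86.9 to 98.5%), with 16 of 17 cytosines lower and an adjusted p of 0.00563 by Fisher's exact test. The bin on chromosome 15 at 97244501 to 97245000 stood at 70.4% in the ATO library (61.5 to 78.8%) and 92.3% in the control library (85.8 to 96.7%), with all 15 cytosines lower and an adjusted p of 0.00351 by the same exact test. In these 4 bins, and in the called bin described next, the libraries' intervals do not overlap. Calls and intervals rest on the same divided calls, so this is no further support for a difference. The bin that was higher lay on chromosome 8 at 120846001 to 120846500, with 96.9% in the ATO library (87.0 to 99.5%) and 72.2% in the control library (59.2 to 82.9%), 8 cytosines called and an adjusted p of 0.0381 by Fisher's exact test. The nearest placed promoter was that of Ephb4, a receptor tyrosine kinase, for the bin on chromosome 5, at 82914 bp, and it was farther away for the other 4 bins.

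Calls at single cytosines were few as well. Called lower in the ATO library were 398 cytosines of methylated dense bins (0.607%), against 1.75% of all analysed autosomal cytosines, and called higher were 119 (0.181%), against 0.928% (Fisher's exact test, Benjamini-Hochberg adjustment over all of these cytosines, difference of at least 25 points). They lay in 293 bins, and 16 bins held at least 5 of them. The mean difference per cytosine was -1.02 points (SD 9.27).

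Most cytosines within these bins were highly methylated. As the mean of both libraries, 70.7% of cytosines were at 90% or more and 47.7% at 95% or more, while 9.69% were between 50 and 80% and 495 (0.755%) were below 50%. No cytosine was below 50% in 2744 bins (89.4%), and in 1145 bins (37.3%) every cytosine was at 80% or more. The median SD of cytosine levels within a bin was 6.58 points (quartiles 4.28 and 9.70), against a median of 2.98 points that read counting alone would give. The spread was above counting in 3054 bins and above 3 times counting in 677 (22.1%). Cytosines of a bin were thus not all alike, and their deviations from the bin mean correlated between the libraries with a Pearson r of 0.62 over 65592 cytosines, which share positions and fragments.

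Sparse bins of the same level had a somewhat smaller median within-bin SD. It was 5.88 points, against 2.88 from counting, and 21.7% were above 3 times counting. A median SD tends to come out lower when taken from fewer cytosines. Sparse bins held a weighted mean of 7.39 cytosines and dense bins a median of 19, and this was not adjusted for. The share of cytosines below 50% had no fixed order. It was 0.755% in dense and 0.657% in sparse bins, but 1.02% in dense and 1.17% in sparse bins at a coverage minimum of 5. At a level of at least 85% it was 0.369% in dense and 0.373% in sparse bins, and on the reverse strand alone 0.679% in dense and 0.720% in sparse bins. By level, dense bins had a median SD of 12.3 points at 80 to 85%, 9.48 at 85 to 90%, 6.45 at 90 to 95% and 3.56 at 95 to 100%, against 11.2, 8.89, 5.70 and 3.36 in sparse bins. Taken by library, the median SD in dense bins was 7.91 points in the ATO library and 7.36 in the control library.

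**Figure D4:**
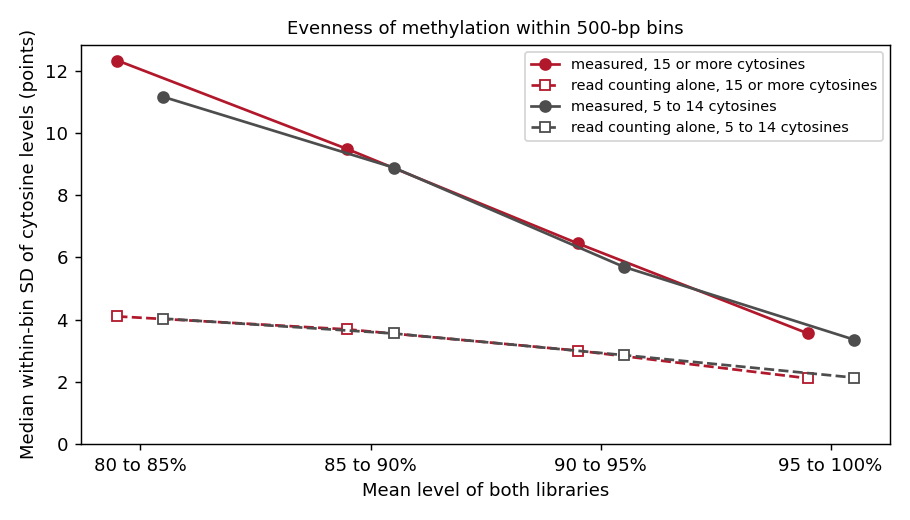
Median SD of cytosine levels within a bin (points) by class of mean level, measured (filled) and as read counting alone would give (open), for bins with 15 or more analysed cytosines and with 5 to 14. The measured SD goes from 12.3 to 3.56 points in dense bins and from 11.2 to 3.36 in sparse bins, above counting in every class.

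The extremes show what uneven and even mean here. The most uneven bin, on chromosome 11 at 3027501 to 3028000, had an SD of 36.8 points, with 6 of its 16 cytosines below 50% and the lowest at 0%. Its coverage was 750 reads a cytosine in the ATO library and 641 in the control library, and the bins with the next highest SD were also read deeply, on chromosome 8 at 56199001 to 56199500 with 717 reads in the ATO library and 606 in the control library. The most even bin, on chromosome 14 at 21531501 to 21532000, had 18 cytosines at an SD of 0.690 points, the lowest of them at 96.0%. It stood at 98.1% in the ATO library and 97.7% in the control library. The bin with the most analysed cytosines, 85 on chromosome 11 at 3093001 to 3093500, stood at 83.2% in the ATO library and 81.6% in the control library, with a coverage of 610 reads in the ATO library and 466 in the control library.

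Bins next to a methylated dense bin were usually methylated as well. Of the 1958 methylated dense bins with a measured adjoining bin, 1536 (78.4%) had all such bins at 80% or more, against 66.5% of sparse bins of the same level. An adjoining bin below 20% was found beside 24 (1.23%), against 2.95%. The median level of adjoining bins was 91.8% for dense and 85.4% for sparse bins. The difference between the libraries was partly shared, with a Pearson r of 0.32 between a methylated dense bin and its adjoining bin (2351 pairs), and of 0.62 between alternate cytosines of a bin (3068 bins). Adjoining bins and alternate cytosines share fragments, and r is given as a description.

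Most methylated dense bins had no adjoining bin that also met the rule. The rule asks for at least 15 analysed cytosines there too, and only 1958 of the 3068 had a measured adjoining bin at all. There were 2429 single bins, and 293 runs of at least 2 adjoining bins held 639 of them (20.8%). Only 41 runs had 3 or more bins. The longest covered 3500 bp of chromosome 15, from 76009001 to 76012500, with 7 bins and 242 cytosines. Its bins ran from 91.6 to 98.2% in the ATO library and from 88.5 to 96.6% in the control library, no cytosine was below 50%, and none was called. A run of 5 bins on chromosome 11, from 106910001 to 106912500, stayed between 96.2 and 96.9% in the ATO library and between 95.6 and 96.5% in the control library. Its coverage was 336 to 480 reads a cytosine in the ATO library and 317 to 434 in the control library.

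Sharp borders to unmethylated DNA were rarely seen among the analysed bins. The distance from a methylated dense bin to the nearest unmethylated dense bin had a median of 29000 bp (quartiles 11000 and 79500), against 33500 bp for sparse bins of the same level. Only 8 (0.261%) were in the adjoining bin and 122 (3.98%) within 2000 bp, against 0.326% and 5.80% of sparse bins. The sharpest border was on chromosome 5. There the bin at 92706001 to 92706500 stood at 96.3% in the ATO library and 95.8% in the control library, while the mean of both libraries in the next bin to the right was 1.51%. The promoter of Naaa, which encodes a lysosomal amidase, started 956 bp away. The mean difference between the libraries was negative at every distance. It was -1.36 points within 2000 bp (122 bins), against -0.98 in sparse bins, and -1.12 points in the 592 bins next farther away, against -1.21. In the 1079 bins farthest away it was -1.03 points.

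Mean methylation of the analysed cytosines was lower farther from the dense bins, which were themselves selected for a high level. The cytosines behind it fell from 65592 within 250 bp to 8158 at 750 to 1000 bp and 4801 at 1750 to 2000 bp. The far values thus come only from places where such cytosines were analysed, and do not follow the same bins outward. Single cytosines 250 to 500 bp from the bin centre averaged 87.7% in the ATO library and 88.8% in the control library. At 750 to 1000 bp they averaged 72.1% in the ATO library and 73.5% in the control library, and at 1750 to 2000 bp 51.5% in the ATO library and 52.5% in the control library. Around sparse bins the level was lower at the same distance, at 59.4% in the ATO library and 61.4% in the control library at 750 to 1000 bp. The libraries ran in parallel, with mean differences of -0.70 to -1.57 points around dense bins at all distances up to 5000 bp, against -1.12 to -2.21 around sparse bins.

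**Figure D5:**
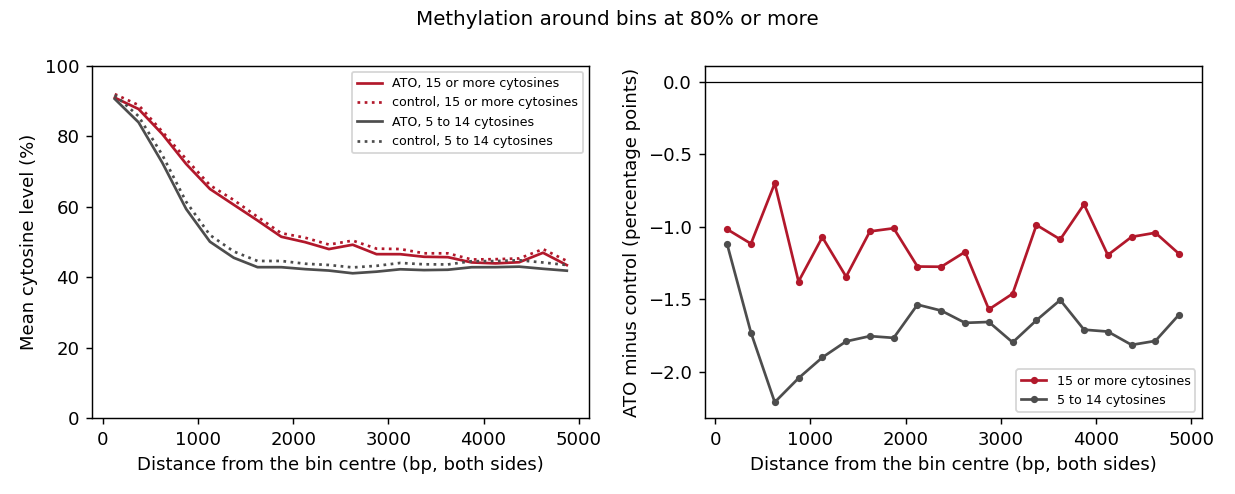
Left, mean methylation of analysed cytosines (percent) against distance from the bin centre (bp, in 250-bp steps) around methylated bins with 15 or more cytosines and with 5 to 14, for the ATO and control libraries, and right, their difference in points. Around dense bins the level is 87.7% (ATO) and 88.8% (control) at 250 to 500 bp and 51.5% (ATO) and 52.5% (control) at 1750 to 2000 bp, with the ATO line just below the control line throughout. Far points rest on fewer cytosines, 4801 at 1750 to 2000 bp against 65592 within 250 bp.

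At the limit of the rule the values ran on without a gap. The bin nearest above the limit, on chromosome 12 at 20457501 to 20458000, stood at 78.9% in the ATO library and 81.1% in the control library. The bin nearest below it, on chromosome 1 at 21323501 to 21324000, stood at 83.0% in the ATO library and 77.0% in the control library. Since the rule uses the mean of both libraries, 2923 of the 3068 bins were at 80% or more in the ATO library and 3020 in the control library.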

How the data were processed

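DNA from the hippocampus was sonicated, captured with the SureSelect Methyl-Seq kit, bisulfite-treated and sequenced, per the labels' protocols. Bowtie2, Bismark 0.19.0 and bcl2fastq, with build mm9, are listed per the submitters' processing notes. Handling of duplicates is not given in the sources available here. The authors deposited, per the file headers, a read count (coverage) per CpG cytosine and strand, and C and T as a percent of it with 2 decimals. Methylated reads were recovered as coverage times percent C, and all products were whole within 0.005 points. Cytosines with at least 10 reads in both libraries on chromosomes 1 to 19 were binned by 500 bp.

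Bins and cytosines were compared with Fisher's exact test (two-sided) with Benjamini-Hochberg adjustment over 149544 bins and 2271297 cytosines (scipy 1.17.1, pandas 2.3.3, Python 3.11.15), which was tested on simulated data. Bin sums, and the calls behind exact intervals, were divided by the cytosines that can share a fragment of 300 bp, or by those of the promoter window. Sparse bins were weighted to the dense bins' levels in 1-point classes. Median coverage was 45 reads (ATO) and 41 (control). Named bins were the called bins, the largest differences, the longest runs, those with most cytosines, the most and least even, those at the limit and those with the lowest adjoining bin. The members and gene lists were chosen with earlier results of these data known.

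No mm9 annotation was used. As a step added after the files were seen, RefSeq promoter letters were placed where the spacing of at least 10 CpG sites matched listed cytosines, with at least 90% of sites listed, no other listed site and only 1 position on the chromosome. Promoters of chromosome 18 were not analysed here. Alternatives covered coverage, density, level, bin size and offset, strand, depth and thresholds.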

Additional observations from a re-analysis of the deposited data

How the results depend on the processing

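No paired analysis was possible because each group has 1 library. No single value changed sign under the alternatives run, but 2 orders of dense against sparse bins turned round. The share of cytosines below 50%, higher in dense bins, was lower there at a coverage minimum of 5 (1.02% against 1.17%), at a level of at least 85 (0.369% against 0.373%) and on the reverse strand (0.679% against 0.720%). The mean difference was more negative in dense bins on the reverse strand (-1.21 against -1.13) and with at least 15 distinct CpG sites (-1.19 against -1.09), and less negative at a coverage minimum of 5 (-1.01 against -1.07) and in bins of 1000 bp (-0.79 against -1.01). The within-bin SD was higher in dense bins under all alternatives run for it, none of which equalised the number of cytosines per bin. For the results that answer a comparison, 69 recomputed values kept their size within counting error, or within 1.5 times for counts. The other 51 follow, beside 3068 bins, a mean difference of -1.08 points in dense and sparse bins, a within-bin SD of 6.58 points, 0.755% of cytosines below 50%, 78.4% with methylated adjoining bins, a distance of 29000 bp, 4 bins called lower and 1 higher, and 517 called cytosines. A coverage minimum of 5 gave an SD of 7.26 and 1.02% low cytosines, and one of 20 gave 1955 bins, 6.00, 0.601%, 34000 bp and 0 called higher. At least 20 cytosines gave 1396 bins, -0.96 in sparse bins, an SD of 6.07, 0.639%, 82.9%, 33250 bp, 1 called lower and 0 higher. A level of at least 85 gave -0.84 in dense and -0.87 in sparse bins, 5.91, 0.369%, 83.5%, 0 called lower and 0 higher, and one of 75 gave -1.25 in sparse bins, 7.08, 1.27%, 73.7% and 4 called higher. Bins shifted by 250 bp gave 0 called higher. Bins of 1000 bp gave 711 bins, -0.79 in dense and -1.01 in sparse bins, 0.997%, 73.8%, 40000 bp, 1 called lower and 0 higher. The reverse strand alone gave 0.679%, 76.4% and 23500 bp. Levels as means of cytosines gave 0.607%, 2 called lower and 2 higher. An adjusted p under 0.01 gave 0 called higher and 304 called cytosines, all calls counted gave 7 lower and 2 higher, and a difference of 10 points gave 8 lower and 3 higher. Chosen after seeing the data, leaving out bins above 200 reads a cytosine gave 0.677%, and at least 15 distinct CpG sites gave 0.687% and 24000 bp. For fewer bins or cytosines entering, the alternative itself sets the count, and the cause of other moves was not tested. Depth limits single bins: the interval of the called bin on chromosome 5 ran from 58.0 to 78.7% in the ATO library.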

Other observations

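Several kinds of methylated dense bin stood outside the comparisons above. On the X chromosome, which the rule left out, 79 of 655 dense bins (12.1%) were at 80% or more. They averaged 92.8% in the ATO library and 93.1% in the control library, a mean difference of -0.32 points (SD 2.56), with 45 lower in the ATO library.

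In 41 autosomal methylated dense bins (1.34%), 1 distance between neighbouring CpG sites made up at least 50% of all such distances, against 7 of 27895 unmethylated dense bins (0.0251%). The repeated distance ran from 2 to 41 bp. The bin on chromosome 9 at 121863001 to 121863500 had a CpG every 22 bp in 95% of its gaps and stood at 97.7% in the ATO library and 97.8% in the control library. These 41 bins averaged 93.7% in the ATO library and 94.2% in the control library, a mean difference of -0.52 points (SD 1.62), with 21 lower in the ATO library.

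In 78 methylated dense bins both libraries had more than 200 reads a cytosine. They averaged 90.5% in the ATO library and 90.7% in the control library, a mean difference of -0.20 points (SD 1.47), with 45 lower in the ATO library. The other 2990 bins had a mean difference of -1.10 points (SD 3.86).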
